A study of Mus musculus with 4 samples.

Results

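The 10 genes described here, *Nodal*, *Lefty1*, *Lefty2*, *Tdgf1*, *Smad7*, *Skil*, *Bmp4*, *Id1*, *Id2* and *Id3*, were chosen by name as ligands, a co-receptor, inhibitors and targets of Nodal and BMP signalling. Of these, 9 have a value among the 9779 genes measured, and *Lefty1* was not analysed here. The RNA came from LF2 embryonic stem cells (ESCs), a female mouse line of strain 129/J. All cells had been grown on feeder cells and then passaged without feeders. They were cultured for 24 hr with the vehicle PBS or 50 µg/ml of ascorbic acid (AA), and with the vehicle DMSO or 10 µM GSK-J4. The 4 conditions were PBS+DMSO, PBS+GSK-J4, AA+DMSO and AA+GSK-J4, with 1 RNA-Seq library each from this single line. GSK-J4 inhibits the histone demethylases Utx and Jmjd3. The authors report that it can also inhibit other histone demethylases. They found the histone marks H3K4me3 and H3K27me3 both raised at *Nodal* with GSK-J4. They also list *Nodal* among the genes induced by GSK-J4, and found it lower after knockdown of Utx. AA (vitamin C) keeps the iron of demethylases of this kind in its active form.

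Nodal and BMP4 are secreted proteins of the TGF-β superfamily. Nodal binds activin receptors together with the co-receptor encoded by *Tdgf1* (Cripto) and signals through Smad2 and Smad3, and its targets include *Nodal* itself and its own inhibitors, the Lefty genes, *Smad7* and *Skil*. BMP4 binds BMP receptors and signals through Smad1, Smad5 and Smad9, and the *Id* genes, whose products bind and block basic helix-loop-helix transcription factors, are its classical targets. In mouse ESCs, the BMP and *Id* axis is known for supporting self-renewal, whereas Nodal signalling is known for its role in the epiblast and in mesendoderm formation.

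Levels are in FPKM, which is a fragment count scaled to exon length and to the mapped fragments of the library, and differences are log2((FPKM + 1)/(FPKM + 1)). With 1 library per condition, differences have no replicate check, no test was run, and "rose" or "fell" is used only of a change of at least 2-fold on this scale. Over all genes tested, GSK-J4 over DMSO gave a median log2 ratio of -0.17 in the absence and -0.16 in the presence of AA. Dividing each library by its upper quartile moved this median to 0.08 in both comparisons, and scaling all libraries to the same total moved it to 0.17 and 0.14. Among genes changed at least 2-fold, the share that was higher was 58.6% without AA and 55.0% with AA as deposited, and 89.4% and 86.5% at the same total. Of 10 ES cell markers, 9 had a value, all 9 were lower with GSK-J4 in both comparisons as deposited, and their summed FPKM was 2178, 1343, 1945 and 1207 in PBS+DMSO, PBS+GSK-J4, AA+DMSO and AA+GSK-J4. Their median log2 ratios, -0.73 without AA and -0.67 with AA, were -0.16 and -0.19 relative to genes of like level, with 3 of 9 above, and at the same total 2 of 9 were above 0 with AA. *Tdgf1* is itself one of these markers. Of 11 feeder fibroblast markers, 3 had a value, and their summed FPKM was 7.54 to 8.85 in the 4 libraries. In each GSK-J4 comparison, 2 of these had a ratio above 0 and 1 below. The part of either in the differences below was not tested, and in bulk RNA fewer cells of a type and less RNA per cell cannot be told apart.

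*Nodal* and *Bmp4*, the ligands, moved in opposite directions with GSK-J4. *Nodal* rose without AA by a log2 ratio of 1.31, and its ratio with AA was 0.90. *Bmp4* fell in both comparisons, with log2 ratios of -1.65 and -1.19. *Tdgf1* fell with AA, at -1.01. The remaining 6 genes lay between -0.88 and -0.02, and *Id2* was the lowest of these in both comparisons. In all, 1 of 9 genes was at least 2-fold higher without AA, against 4.96% of all 9196 genes tested, and 0 of 9 with AA, against 4.13% of 9139 genes. At least 2-fold lower were 1 of 9 without AA, against 3.50% of all genes, and 2 of 9 with AA, against 3.38%. In both comparisons together, 0 of 9 were higher and 1 of 9 was lower by this measure, against 3.15% and 1.84% of 8972 genes.

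**Figure D1:**
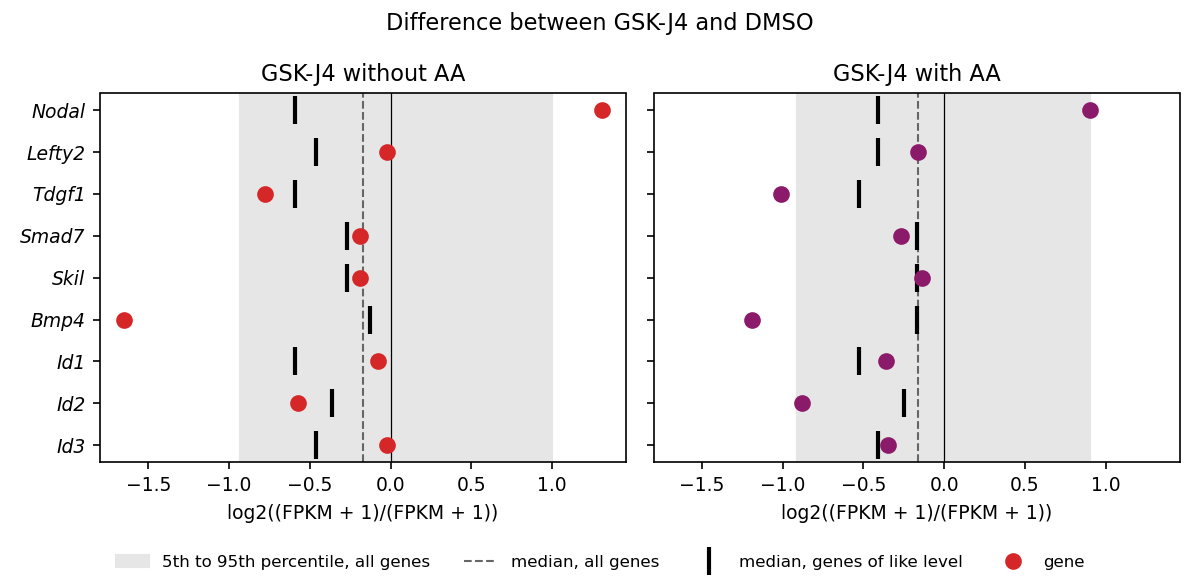
Log2 ratio of GSK-J4 over DMSO for each of the 9 genes, without AA (left) and with AA (right), on an axis in log2((FPKM + 1)/(FPKM + 1)). Points are the genes, the grey band spans the 5th to 95th percentile of all genes tested, the dashed line is their median, and the short bars are the medians of genes of like level. *Nodal* lies right of the band without AA and at its edge with AA, and *Bmp4* lies left of it in both.

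The sequences upstream of *Nodal* and *Bmp4*, the ligands with opposite changes, and of *Id2* and *Id3*, a pair of related genes with unlike ratios, are shown as context for these values. They are RefSeq promoter windows of GRCm38.p6, the assembly named mm10 in the submitters' processing notes, running from 250 bases before to 50 after the transcript start. Capitals mark the SMAD box (GTCT, or AGAC on the other strand) and the GC-rich SMAD element GGCGCC, which reads the same on both strands. These motifs cannot overlap each other.
Nodal: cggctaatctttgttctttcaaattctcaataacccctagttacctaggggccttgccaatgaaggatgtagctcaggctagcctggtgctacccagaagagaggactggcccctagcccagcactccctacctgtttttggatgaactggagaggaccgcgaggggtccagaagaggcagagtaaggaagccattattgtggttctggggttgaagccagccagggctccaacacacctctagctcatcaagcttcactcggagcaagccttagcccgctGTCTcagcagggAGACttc
Bmp4: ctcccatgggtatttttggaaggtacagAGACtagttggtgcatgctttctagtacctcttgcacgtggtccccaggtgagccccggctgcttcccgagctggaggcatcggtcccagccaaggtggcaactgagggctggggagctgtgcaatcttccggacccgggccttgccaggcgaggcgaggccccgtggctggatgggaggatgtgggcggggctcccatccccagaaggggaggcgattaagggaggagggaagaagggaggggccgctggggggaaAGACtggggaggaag
Id2: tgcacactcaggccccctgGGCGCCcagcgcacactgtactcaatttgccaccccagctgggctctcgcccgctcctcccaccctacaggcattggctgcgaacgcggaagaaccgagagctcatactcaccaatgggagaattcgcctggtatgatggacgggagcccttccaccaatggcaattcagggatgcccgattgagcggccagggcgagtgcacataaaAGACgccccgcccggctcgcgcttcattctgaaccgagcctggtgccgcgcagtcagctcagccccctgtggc
Id3: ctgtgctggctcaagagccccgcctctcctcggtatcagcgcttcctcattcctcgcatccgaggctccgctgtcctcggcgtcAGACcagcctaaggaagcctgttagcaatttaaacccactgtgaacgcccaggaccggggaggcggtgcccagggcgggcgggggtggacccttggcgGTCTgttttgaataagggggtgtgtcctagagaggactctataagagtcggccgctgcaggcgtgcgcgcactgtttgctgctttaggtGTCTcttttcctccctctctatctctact

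The windows lie at chr10:61417722-61418021 on the plus strand for *Nodal*, chr14:46390620-46390919 on the minus strand for *Bmp4*, chr12:25096043-25096342 on the minus strand for *Id2* and chr4:136143572-136143871 on the plus strand for *Id3*. That of *Nodal* ends before the locus whose level is reported here, which starts at chr10:61418228. Windows were found for 5 of the 10 genes, *Tdgf1* being the fifth. The SMAD box was present 2 times in the *Nodal* window, 3 in *Tdgf1*, 2 in *Bmp4*, 1 in *Id2* and 3 in *Id3*. It is a short motif, and 88.0% of all 32851 promoters and 85.5% of the 9497 promoters of genes with a value held it. GGCGCC was present in the *Id2* window only of these 5, and in 11.9% of all promoters and 22.2% of those of genes with a value. The FOXH1 motif (AATCCACA, or TGTGGATT on the other strand) matched in none of the 5 windows. It matched in 0.855% of all promoters and in 0.495% of those of genes with a value. The windows also differed in CpG dinucleotides, of which *Nodal* had 5, *Tdgf1* 7, *Bmp4* 12, *Id3* 19 and *Id2* 21. The median was 7.0 in all promoters and 21 in those of genes with a value. A match to these letters is a description and not a binding site.

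*Nodal*, the ligand of the activin-type branch, was measured at chr10:61418228-61425333 (mm10), a locus that starts 256 bases inside the annotated gene. Its level was 42.0 FPKM with the vehicles, 105 with GSK-J4 alone, 39.5 with AA alone and 74.5 with both agents. Both GSK-J4 libraries were above both DMSO libraries, and the DMSO libraries were close to each other. On the FPKM themselves, GSK-J4 gave a 2.51-fold higher value without AA and a 1.89-fold higher value with AA. Among all genes by level, *Nodal* stood at percentile 84.8 with the vehicles and 96.2 with GSK-J4 alone. Genes of like level, meaning those in the same of 10 equal bins of all genes tested by mean log2 level, had a median log2 ratio of -0.59 without AA and -0.41 with AA. Relative to these medians the *Nodal* ratio was 1.89 and 1.31. Of 919 genes of like level, 913 had a lower ratio than *Nodal* without AA, and with AA it was 896 of 914. The sign of the *Nodal* difference was the same under every alternative tried, and with AA it passed 2-fold under each of the 4 other scalings.

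**Figure D2:**
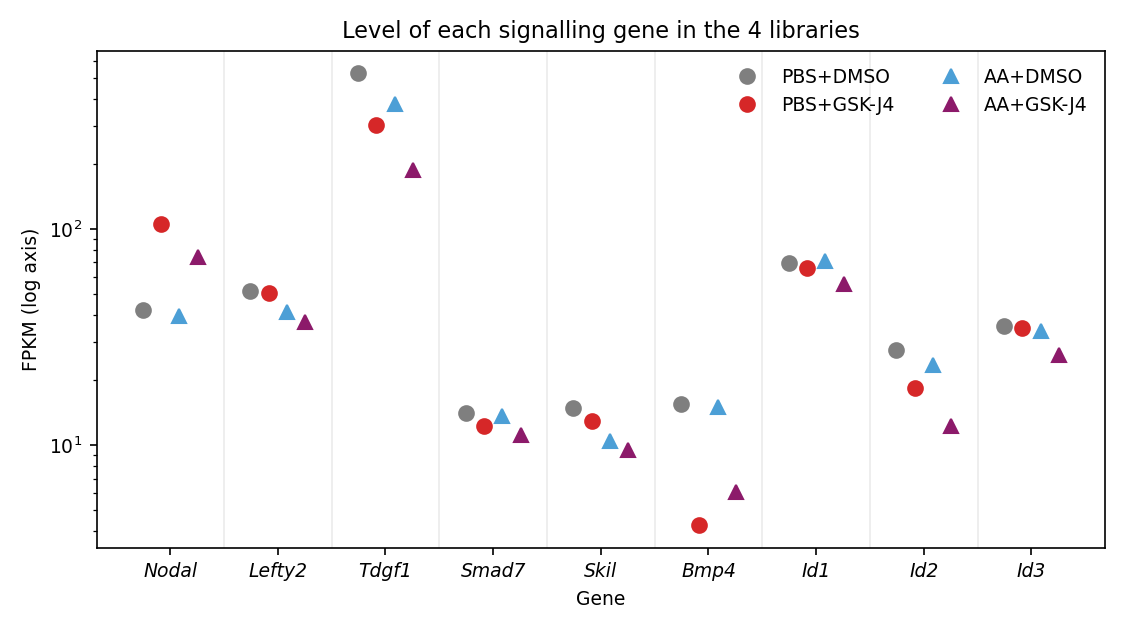
FPKM (log axis) of each of the 9 genes in the 4 libraries, each point being 1 library. *Nodal* is higher in both GSK-J4 libraries, *Bmp4*, *Tdgf1* and *Id2* are lower in both, and the points of *Smad7* lie close together, between 11.2 and 14.1.

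*Tdgf1*, the co-receptor at chr9:110939578-110946221, was the highest of the 9 genes in every library. Its level was 525 FPKM with the vehicles, 304 with GSK-J4 alone, 378 with AA alone and 187 with both agents. The order of the libraries differed from that of *Nodal*, with PBS+DMSO highest and the library with both agents lowest. The level was 1.72-fold lower with GSK-J4 without AA and 2.03-fold lower with AA. Genes of like level also had negative medians, and relative to them *Tdgf1* had -0.19 without AA and -0.48 with AA. The 2-fold decrease with AA was lost with a pseudocount of 5 and under each other scaling. *Tdgf1* has closely related processed copies in the mouse genome, and how reads shared with them were assigned is not given in the sources used here.

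*Lefty2*, a secreted antagonist of Nodal and a target of its signalling, is encoded at chr1:180891927-180899890. Its level was 51.4 FPKM with the vehicles, 50.8 with GSK-J4 alone, 41.5 with AA alone and 37.1 with both agents. The PBS libraries were above the AA libraries, and GSK-J4 left the value nearly level in each pair, with log2 ratios of -0.02 and -0.16. Relative to genes of like level these were 0.45 and 0.25, and the sign turned under all 4 other scalings without AA and under 3 of them with AA. *Lefty1* and *Lefty2* are neighbouring genes of very similar sequence, so reads of either may be counted for the other.

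*Smad7*, an inhibitory Smad induced by both branches, had 14.1, 12.3, 13.6 and 11.2 FPKM in PBS+DMSO, PBS+GSK-J4, AA+DMSO and AA+GSK-J4. It varied least of the 9 genes, and both GSK-J4 libraries were slightly below both DMSO libraries. *Skil* (chr3:31094979-31122575), which encodes the Smad co-repressor SnoN, had 14.9, 12.9, 10.5 and 9.46 FPKM in the same order. Here both AA libraries were below both PBS libraries. The log2 ratios of GSK-J4 without and with AA were -0.19 and -0.27 for *Smad7*, and -0.19 and -0.14 for *Skil*, and the sign turned under 3 of the other scalings for each gene without AA, and under 1 for *Smad7* and 4 for *Skil* with AA. *Skil* is the sum of 2 coding sequence groups, with ratios of -0.06 and -0.25 in the one and -0.32 and 0.03 in the other.

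*Bmp4*, the BMP ligand, was measured at chr14:46383535-46390621. Its level was 15.5 FPKM with the vehicles, 4.26 with GSK-J4 alone, 15.0 with AA alone and 6.04 with both agents. Both GSK-J4 libraries were below both DMSO libraries, and the 4.26 is the lowest value of any of the 9 genes. The level was 3.64-fold lower with GSK-J4 without AA and 2.49-fold lower with AA. Against the medians of genes of like level, it stood at -1.52 without AA and -1.02 with AA on the log2 scale. Only 5 of 919 genes of like level had a lower ratio without AA, and 9 of 914 with AA. The 2-fold decrease without AA held under each pseudocount, filter and scaling tried, while with AA it was lost with a pseudocount of 5, after upper-quartile scaling and at the same total. The locus overlaps *Gm15217* and *Gm15222*, which are annotated on the other strand. Whether reads were counted by strand is not given, so reads of these genes and of *Bmp4* cannot be told apart.

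*Id1*, *Id2* and *Id3*, the BMP targets, did not follow *Bmp4* in size. *Id2* (chr12:25093802-25096081) had 27.6 FPKM with the vehicles, 18.3 with GSK-J4 alone, 23.5 with AA alone and 12.3 with both agents. It was 1.51-fold lower with GSK-J4 without AA and 1.91-fold lower with AA, which is short of 2-fold. Its log2 ratios, -0.57 and -0.88, kept their sign under every alternative tried. *Id1* (chr2:152736260-152737458) had 69.8, 66.1, 71.4 and 55.5 FPKM in the same order, and *Id3* (chr4:136143832-136145400) had 35.4, 34.9, 33.7 and 26.1. For both, 3 libraries were near each other and AA+GSK-J4 was lowest. The log2 ratios of *Id1* were -0.08 and -0.36, those of *Id3* were -0.02 and -0.35, and both genes changed sign under all 4 other scalings without AA and under 1 of them with AA.

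Ratios between genes within a library are free of any scaling between libraries. The FPKM of *Nodal* over that of *Bmp4* was 2.71 with the vehicles, 24.7 with GSK-J4 alone, 2.62 with AA alone and 12.3 with both agents. *Nodal* over *Lefty2*, ligand over antagonist, was 0.818, 2.07, 0.950 and 2.01. *Lefty2* was thus below *Nodal* in both GSK-J4 libraries. In PBS+DMSO it was above, at 51.4 against 42.0 FPKM. In AA+DMSO, 41.5 against 39.5 FPKM cannot be separated without replicates. *Lefty1*, which was not analysed, does not enter this ratio. *Nodal* over *Tdgf1*, ligand over co-receptor, was 0.0801, 0.346, 0.104 and 0.399. *Bmp4* over *Id1* was 0.222, 0.0644, 0.211 and 0.109, and *Id2* over *Id1* was 0.396, 0.277, 0.329 and 0.222. *Id3* over *Id1* stayed between 0.471 and 0.528. *Tdgf1* over *Pou5f1*, the gene of the pluripotency factor Oct4, was 0.605, 0.597, 0.473 and 0.389, so that its GSK-J4 difference without AA was close to that of *Pou5f1*.

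In PBS+DMSO, the order of the 9 genes by FPKM, which is per length, was *Tdgf1*, *Id1*, *Lefty2*, *Nodal*, *Id3*, *Id2*, *Bmp4*, *Skil* and *Smad7*. Without replicates, neighbours in this order such as *Bmp4*, *Skil* and *Smad7*, at 15.5, 14.9 and 14.1 FPKM, cannot be separated. *Nodal* ranked 2nd in both GSK-J4 libraries. As a group, the 9 genes had a median log2 ratio of -0.19 without AA and -0.35 with AA, and 8 of 9 were below 0 in each comparison, beside 63.0% and 62.2% of all genes. Relative to genes of like level, the group's median was 0.08 and 0.03, and 6 of 9 without AA and 5 of 9 with AA were above those medians. The shift of the group as a whole was thus near that of genes at the same level, and *Nodal* and *Bmp4* stood furthest from them.

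**Figure D3:**
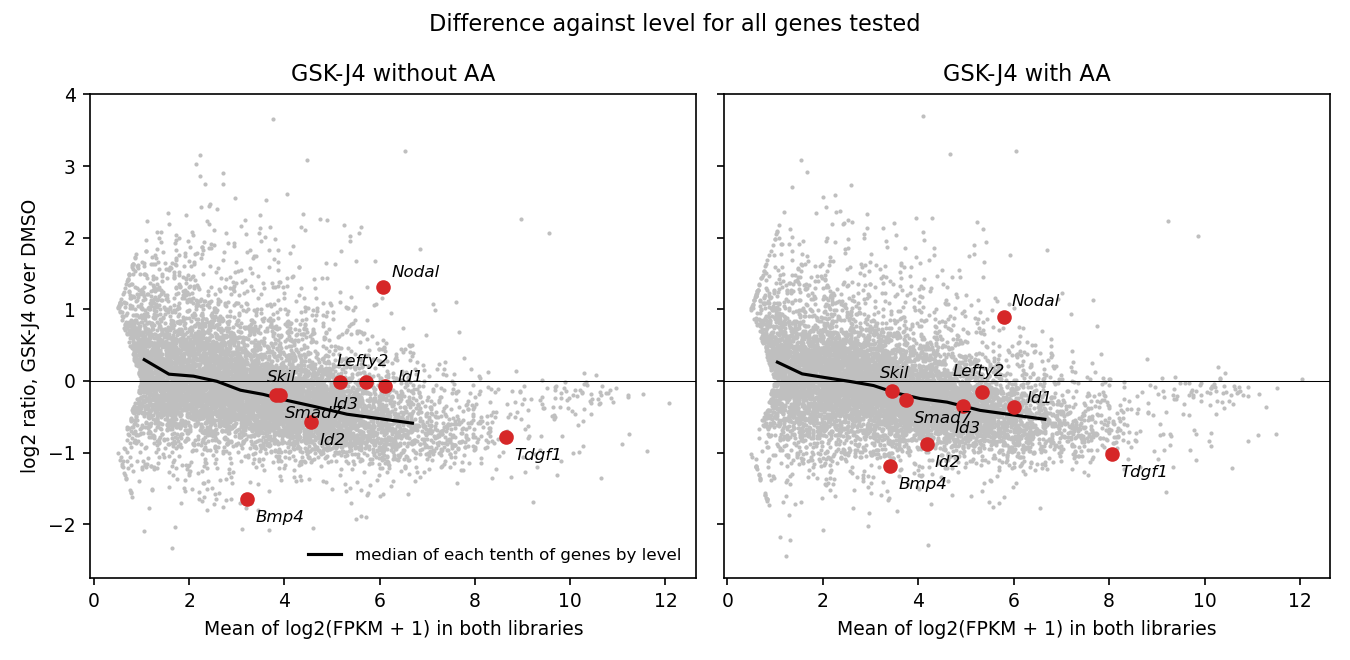
Log2 ratio of GSK-J4 over DMSO against the mean of log2(FPKM + 1) for all genes tested (grey), without AA (left) and with AA (right), with the 9 genes in red and a black line through the medians of 10 bins of genes by level. The line falls as level rises. Of the 9 genes, *Nodal* lies farthest above it and *Bmp4* farthest below it, and without AA *Lefty2*, *Id1* and *Id3* lie 0.45, 0.51 and 0.44 above it.

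The other pathway genes reported comprised 86 listed genes, of which 47 had a value. With GSK-J4 without AA, 3 of the 44 genes tested were at least 2-fold higher and 1 was lower, beside 4.96% and 3.50% of all genes. With AA it was 2 and 2 of 43, beside 4.13% and 3.38%. Of the higher genes, *Bmp7* and *Tgfbr3* passed the filter of 1 FPKM only through the GSK-J4 libraries, where they were high, so these counts are no more than a description. The pathway genes' median log2 ratios were 0.12 and 0.26, and 25 of 44 and 27 of 43 genes were above 0, beside 37.0% and 37.8% of all genes. *Tgfbr2*, *Fstl3* and *Nbl1* also passed only through the GSK-J4 libraries, so the filter fixed their positive sign. *Gdf1* and *Bmp8a* without AA passed only through PBS+DMSO, which fixed a negative sign. Low genes had positive medians, 0.30 and 0.26 in the lowest of the 10 bins by level. These counts were not set against genes of like level. *Bmp7*, another BMP ligand, rose with GSK-J4 from 0.436 to 3.54 FPKM in the PBS pair and from 0.565 to 2.66 FPKM in the AA pair. Its log2 ratios of 1.66 and 1.23 depended on the pseudocount, with 0.65 and 0.46 at a pseudocount of 5 and 2.76 and 2.05 at 0.1. *Bmp7* over *Bmp4* within a library was 0.0281, 0.830, 0.0375 and 0.440 in PBS+DMSO, PBS+GSK-J4, AA+DMSO and AA+GSK-J4. The lower ligand of the DMSO libraries thus came near the level of *Bmp4* in PBS+GSK-J4 while staying below it.

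Among receptors, *Eng*, which encodes the co-receptor endoglin, rose with GSK-J4, from 17.1 to 48.3 FPKM in the PBS pair and 17.3 to 41.4 FPKM in the AA pair. *Tgfbr3*, the betaglycan co-receptor gene, went from 0.323 to 1.74 FPKM and from 0.289 to 1.42, with log2 ratios of 1.05 and 0.91 that became 0.34 and 0.28 with a pseudocount of 5. *Acvr1b*, the type I receptor used by Nodal, had 7.55 and 10.0 FPKM without AA and 8.25 and 10.9 with AA. Its ratio of 0.36 in both comparisons was in the direction of *Nodal* and short of 2-fold. Of the listed Nodal-branch receptors, co-receptors and convertases, *Tdgf1* included, 8 were tested, with 5 above 0 without AA and 7 with AA. Of the BMP receptors, 6 were tested, with 5 above 0 in each comparison. Of all genes, 37.0% without AA and 37.8% with AA were above 0. *Tgfbr2* and *Tgfbr3* passed the filter only through the GSK-J4 libraries.

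Among Smads, *Smad3* of the Nodal branch had 4.97 and 7.94 FPKM without AA and 5.22 and 7.20 with AA. *Smad1* of the BMP branch had 4.36 and 8.33 FPKM, and 3.78 and 8.12. *Smad4*, the partner shared by the branches, had 13.2 and 10.6, and 12.3 and 11.3. With the pseudocount of 1 and the values as deposited, none of these reached 2-fold. *Smad1* in the AA pair was 2.15-fold higher in FPKM, however, and passed 2-fold with a pseudocount of 0.1. At the same total, *Smad1* passed 2-fold in both comparisons, with log2 ratios of 1.13 without AA and 1.22 with AA. As deposited, the log2 ratios were 0.58 and 0.40 for *Smad3* and 0.80 and 0.93 for *Smad1*, positive under every alternative tried. Those of *Smad4*, -0.29 and -0.11, changed sign at the same total without AA and under all 4 other scalings with AA.

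Of 14 listed Nodal-branch inhibitors, 10 were tested and none was 2-fold changed with the pseudocount of 1 and the values as deposited. Of all genes, 4.96% were higher and 3.50% lower without AA, and 4.13% and 3.38% with AA. The inhibitors' counts above and below 0 were 5 and 5 in both comparisons as deposited, beside 37.0% and 37.8% of all genes above 0. Relative to genes of like level, 10 of 10 without AA and 9 of 10 with AA were above the medians, by a median of 0.39 and 0.32. *Fstl3*, among them, passed the filter of 1 FPKM only through the GSK-J4 libraries. The largest ratios were those of *Pmepa1*, a target that restrains TGF-β signalling, at 2.94 and 5.98 FPKM without AA and 2.43 and 5.82 with AA. These are 2.04-fold and 2.39-fold in FPKM, and log2 ratios of 0.83 and 0.99 that passed 2-fold after upper-quartile scaling and at the same total. *Lefty2*, *Smad7* and *Skil* are in this list too, and had negative ratios in both comparisons as deposited, with the changes of sign given above.

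Of 14 listed BMP targets, *Id1*, *Id2*, *Id3* and *Smad7* included, 10 were tested without AA, 8 of these were below 0 and 1 was at least 2-fold lower, beside 63.0% and 3.50% of all genes. With AA, 9 of 9 were below 0 and 2 were 2-fold lower, beside 62.2% and 3.38%. Without AA, 5 of 10 were below 0 after upper-quartile scaling, at the same total and relative to genes of like level. With AA, it was 8 of 9, 7 of 10 and 7 of 9 in the same order. The medians of -0.32 without AA and -0.43 with AA were -0.02 and -0.14 relative to genes of like level, and the first turned to 0.04 at the same total. *Tcf15*, a target that encodes a helix-loop-helix factor, fell with GSK-J4, from 36.5 to 16.9 FPKM in the PBS pair and 35.4 to 15.9 FPKM in the AA pair. Its log2 ratios of -1.07 and -1.10 no longer reached 2-fold under any of the 4 other scalings, being -0.69 and -0.78 at the same total. *Bambi*, a target that encodes a decoy receptor, had 4.08 and 2.74 FPKM without AA and fell from 3.93 to 1.42 with AA. That log2 ratio of -1.02 became -0.87 centred on all genes and -0.47 with a pseudocount of 5. Of 17 listed BMP inhibitors, 9 were tested. As deposited, none of the 9 was 2-fold higher, and *Bambi* with AA was the only 1 lower. Of all genes, 4.96% were higher and 3.50% lower without AA, and 4.13% and 3.38% with AA. *Nbl1*, one of these inhibitors, passed the filter of 1 FPKM only through the GSK-J4 libraries. The lists were not tested against other genes.

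**Figure D4:**
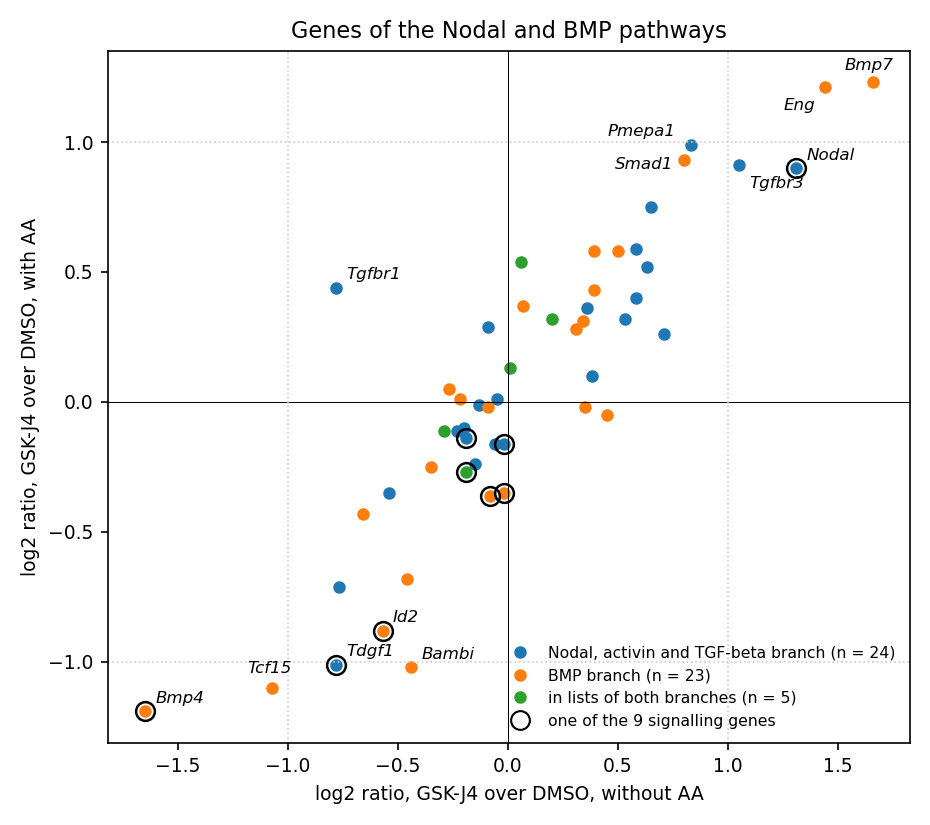
Log2 ratio of GSK-J4 over DMSO without AA (horizontal) and with AA (vertical) for the pathway genes tested in both comparisons, coloured by branch, with the 9 genes circled and dotted lines at 2-fold. *Bmp7* and *Eng* lie beyond the lines at the upper right, and *Bmp4* and *Tcf15* at the lower left.

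The AA comparisons set a library of one deposited table against a library of the other, and each shares its libraries with the GSK-J4 comparisons. None of the 9 genes changed 2-fold with AA. At this mark, 0.565% of 8843 genes were higher and 0.735% lower with AA in DMSO, and 0.512% of 9180 genes were higher and 0.599% lower with AA in GSK-J4. In DMSO, 8 of 9 genes were below 0, beside 62.4% of all genes, with a median log2 ratio of -0.09. In GSK-J4, 8 of 9 were again below 0, beside 55.4% of all genes, with a median of -0.41. All-gene medians were -0.05 and -0.02, with 5th percentiles of -0.38 and -0.43. Below the 5th percentile lay 2 of 9 genes in DMSO, *Tdgf1* and *Skil*, and 4 of 9 in GSK-J4, *Nodal*, *Lefty2*, *Tdgf1* and *Id2*.

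*Tdgf1* was 1.39-fold lower with AA in DMSO and 1.63-fold lower in GSK-J4, and 8 of 884 and 7 of 918 genes of like level had lower ratios. *Lefty2* had log2 ratios of -0.30 and -0.44, and 11 of 884 and 6 of 918 genes of like level were lower. *Skil* had -0.47 and -0.41. These 3 genes were lower with AA whether or not GSK-J4 was present, under every alternative tried, and so were *Nodal* and *Id2*. *Nodal* had -0.09 in DMSO and -0.49 in GSK-J4, *Id2* had -0.22 and -0.53, and *Id3* had -0.07 and -0.40. *Bmp4* had -0.04 and 0.42, the only positive ratio of the 9 genes in GSK-J4.

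**Figure D5:**
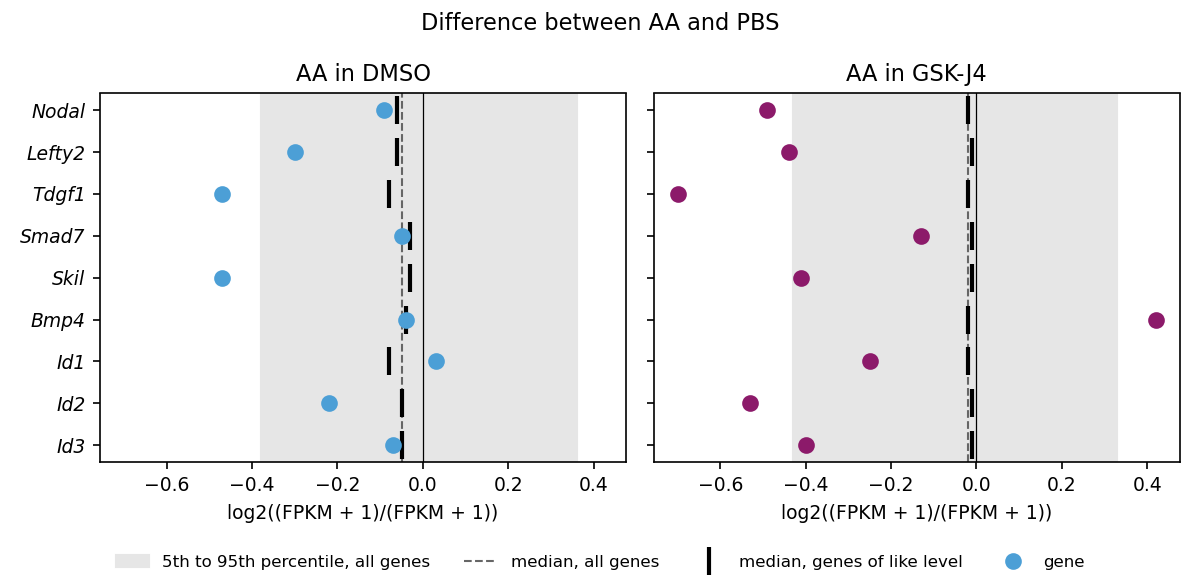
Log2 ratio of AA over PBS for each of the 9 genes, in DMSO (left) and in GSK-J4 (right), on an axis in log2((FPKM + 1)/(FPKM + 1)). Points are the genes, the grey band spans the 5th to 95th percentile of all genes tested, the dashed line is their median, and the short bars are the medians of genes of like level. In GSK-J4, 4 genes lie left of the band and *Bmp4* lies right of it.

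The GSK-J4 comparisons with and without AA share no library. Their difference, the log2 ratio with AA minus that without AA, had a median of -0.23 over the 9 genes and of 0.03 over 8972 genes. It was below 0 in 7 of 9 genes, beside 43.7% of all genes. *Nodal* had -0.41, and 6.79% of all genes were lower. *Bmp4* had 0.46, and 95.8% of all genes were lower. For both ligands the GSK-J4 difference was thus smaller with AA than without it, and for *Tdgf1*, at -0.23, and *Id2*, at -0.31, it was larger. Apart from that of *Bmp4*, these values lay within the 5th to 95th percentile of all genes, -0.47 to 0.41, and no interaction could be tested with 1 library per condition.

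The genes nearest to *Nodal* in pattern were *Crip2*, *Csrp1*, *Rap2b*, *Wdr35* and *Ikbip*, at Euclidean distances of 0.16, 0.22, 0.23, 0.24 and 0.25 over 3 log2 ratios to PBS+DMSO, among 4820 genes. *Crip2* had 32.9, 83.5, 32.3 and 64.9 FPKM in PBS+DMSO, PBS+GSK-J4, AA+DMSO and AA+GSK-J4. The genes nearest to *Id1* were *Pycard*, *Mpv17l2*, *Cox8a*, *Abhd8* and *Hnrnph3*, at 0.01, 0.04, 0.05, 0.07 and 0.07. A distance of 0.25 took in 4 genes around *Nodal* and 626 around *Id1*. The *Id1* ratios were small, while the *Nodal* ratio for GSK-J4 alone lay beyond the 95th percentile of all genes. The 2 counts thus largely restate the size of the ratios.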

How the data were processed

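The authors sequenced single-end reads of 4 mouse ESC libraries, removed duplicates, mapped them with TopHat2 (mm10 in the submitters' processing notes) and computed FPKM with Cufflinks2. The deposited values are FPKM per coding sequence group in 2 tables, 1 without and 1 with AA, in columns headed as log10 that hold linear values. The strand setting and the scaling between libraries are not given in the sources used here. The tables also hold the authors' fold changes, p-values, q-values and calls, which were not used. Removal of duplicates can lower high values.

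FPKM were summed per gene, and 157 genes with a failed estimate were left out. Log2 ratios used a pseudocount of 1 and genes that reached 1 FPKM in either library, as all 9 genes did in all 4 comparisons. This scale understates changes of low genes. Depth per library is unknown, so no counting interval is given. Among values under 0.6 FPKM, 42 of 491 with AA alone, 10 of 231 with GSK-J4 alone and 15 of 250 with both agents lay at the best step of whole reads relative to PBS+DMSO, too few for a relative depth.

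The genes, lists and alternatives were chosen with earlier results of these data known. Named were, besides the 10 genes, list members changed at least 2-fold in one direction in both GSK-J4 comparisons, otherwise the gene of each list with the largest mean absolute ratio, the highest receptor and Smad of each branch, and the 5 genes nearest in pattern to *Nodal* and *Id1* with at least 10 FPKM in a library. Alternatives were other pseudocounts, filters, scalings, thresholds and ways of summing. From the pathway lists, 2 genes are not reported here and were left out of the lists' counts, medians and plot. The calculation was tested on simulated data. Python 3.11.15, numpy 2.4.6, pandas 2.3.3 and matplotlib 3.10.9 were used.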

Additional observations from a re-analysis of the deposited data

Results flagged for a closer look

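Among the 9 genes and the pathway genes named by the rule, the AA difference of 5 had opposite signs in DMSO and in GSK-J4, each in 1 pair of libraries, and the difference between the pairs was not tested. *Bmp4* had log2 ratios of -0.04 in DMSO and 0.42 in GSK-J4, a difference of 0.46. *Id1* had 0.03 and -0.25, a difference of -0.28. *Eng* had 0.01 and -0.22, a difference of -0.23. *Smad3* had 0.06 and -0.13, a difference of -0.18. *Smad4* had -0.10 and 0.08, a difference of 0.17. Other listed pathway genes, *Tgfbr1* among them, also had opposite signs and are not counted here. In DMSO, each of the 5 was within 0.1 of no difference, so the opposite sign rests on small values there.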

How the results depend on the processing

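Of the counts and medians over the 9 genes, 124 values under 13 alternatives stayed within the set tolerance (0.1 on the log2 scale for medians, 1.5 times for counts) and 24 moved. A reversal was defined only for a log2 ratio of at least 1 in size, which no median reached, so none could be recorded here. The medians for GSK-J4 did change sign under some scalings, as given next. For GSK-J4 without AA, the count of genes at least 2-fold higher, 1, became 0 at 4-fold, and the count lower, 1, became 2 at 1.5-fold and 0 at 4-fold. The median of -0.19 became -0.02 centred on all genes, 0.07 after upper-quartile scaling, 0.17 at the same total, 0.08 centred on genes of like level, and -0.08 with the highest coding sequence group alone. For GSK-J4 with AA, the count higher, 0, became 1 under each of these 4 scalings and at 1.5-fold. The count lower, 2, became 1 centred on all genes or on genes of like level, and 0 with a pseudocount of 5, after upper-quartile scaling, at the same total and at 4-fold, and at 1.5-fold it was 3, which is within the tolerance. The median of -0.35 became -0.20, -0.10, -0.03 and 0.03 under the 4 scalings in the order above. For AA in GSK-J4, the count lower, 0, became 1 at 1.5-fold. Counts over all genes moved too: without AA, 456 higher and 322 lower became 1063 and 1775 at 1.5-fold, 48 and 6 at 4-fold, and 808 and 96 at the same total. *Nodal* stayed between 1.23 and 1.89 without AA and between 0.84 and 1.31 with AA, and *Bmp4* between -1.84 and -1.15 and between -1.30 and -0.86. No paired analysis was possible because each condition has 1 library. Depth is unknown, so differences in genes of low level, such as *Bmp7* and *Tgfbr3* in the DMSO libraries, have no counting error attached.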

Other observations

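Markers of the cell types that Nodal and BMP signals are known to bear on were few among the genes with a value. Of 7 primitive streak and mesoderm markers, *Eomes* and *Mesp1* had a value, and their summed FPKM was 1.95, 2.57, 1.57 and 2.74 in PBS+DMSO, PBS+GSK-J4, AA+DMSO and AA+GSK-J4. Of 7 primitive endoderm markers, *Sox7* had a value, at 1.61, 0.867, 1.17 and 0.697 FPKM. Of 7 trophectoderm markers, 3 had a value, summing to 16.4, 18.6, 24.2 and 22.5 FPKM.

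*Tgfbr1*, a type I TGF-β receptor chosen after its values were seen, was the pathway gene whose GSK-J4 difference turned most with AA. It had 5.60 FPKM with the vehicles, 2.84 with GSK-J4 alone, 4.80 with AA alone and 6.86 with both agents. Its log2 ratio of GSK-J4 over DMSO was -0.78 without AA and 0.44 with AA, and AA in GSK-J4 gave 1.03. The difference between the pairs of libraries was not tested.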
